A study of Homo sapiens with 30 samples.

Results

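The early growth response genes EGR1, EGR2, EGR3 and EGR4 and the NAB genes NAB1 and NAB2 were followed in BEAS-2B cells after exposure to whole birch pollen. They were taken as the probes whose gene name on the array is one of these 6 symbols. There were 7 such probes, 2 of them for NAB1, among 58201 probes on the array and 6 genes among 43972 gene names. BEAS-2B cells are an immortalized line from human bronchial epithelium, here grown on inserts at the air-liquid interface, with medium below and air above. Whole birch pollen, 10 mg loaded per exposure, was dispersed over the cells with pressured air in a sedimentation chamber. Per the study, part of such a load was lost to the chamber. Other cells had a mock exposure, which the labels call air. In it, per the study's methods, a fine mesh kept pollen off the cells. Per the study, pollen settled for 10 min, and pollen and mock cells were then moved to another incubator. Each sample was taken at 1 of 5 incubation times, the earliest 10 min and the latest 24 h. The times between them were 55 min, 2h25 min and 6h50 min. Each of the 10 groups had 3 replicates, 30 one-colour arrays in all. Every group is the same line, and mock cells share the handling. In such a bulk extract, fewer cells with a transcript and less of it per cell cannot be told apart.

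EGR1 to EGR4 are zinc finger transcription factors and immediate early genes. Their transcripts rise within minutes of growth factor, stress or mechanical signals through ERK kinases, which act on serum response factor and its ETS partners at CArG boxes of the promoter, and they decay quickly. The EGR proteins bind GC-rich sites in target genes, and NAB1 and NAB2 bind a short inhibitory domain of EGR1, EGR2 and EGR3 and bring the NuRD corepressor to those sites. EGR4 lacks that inhibitory domain. NAB2 is itself known as a target of EGR1, so that the factors and their corepressor form a negative feedback loop. In airway epithelium, EGR1 is known from responses to smoke, particles and proteases.

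The RefSeq table of promoters, on build GRCh38.p14, held 5 of the 6 genes, with 3 annotated starts each for EGR2 and NAB1 and 1 start each for EGR1, EGR4 and NAB2. EGR3 had no entry. The windows of 300 bases reached from 250 bases before the start to 50 after it. Both strands were searched for the CArG box, for the EGR site GCGNGGGCG and for TGACG, the core of the cyclic AMP response element (CRE) that CREB and ATF proteins read, and no match of one motif overlapped a match of another in the 3 promoters shown. Of all 35116 promoters in the table, 1.29% held a CArG box, 9.43% an EGR site and 24.6% the CRE core. The 3 sequences below are the bases before the start of EGR1 at chr5:138465229-138465478 on the plus strand, of the EGR2 start that held a CArG box at chr10:62816367-62816616 on the minus strand, and of NAB2 at chr12:57088864-57089113 on the plus strand. They are shown because the results from 10 min to 2h25 min turn on these genes. Capitals mark CArG boxes in EGR1 and EGR2 and the EGR site in EGR1 and NAB2.
EGR1: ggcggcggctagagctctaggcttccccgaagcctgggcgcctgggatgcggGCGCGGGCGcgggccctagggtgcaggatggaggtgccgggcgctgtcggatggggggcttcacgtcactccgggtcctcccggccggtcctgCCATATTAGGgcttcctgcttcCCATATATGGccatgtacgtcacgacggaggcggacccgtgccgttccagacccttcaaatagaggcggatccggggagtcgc
EGR2: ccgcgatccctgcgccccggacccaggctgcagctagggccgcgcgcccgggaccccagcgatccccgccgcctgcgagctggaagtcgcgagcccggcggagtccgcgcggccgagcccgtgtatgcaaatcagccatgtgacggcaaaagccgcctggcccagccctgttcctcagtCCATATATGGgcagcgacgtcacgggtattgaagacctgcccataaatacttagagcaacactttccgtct
NAB2: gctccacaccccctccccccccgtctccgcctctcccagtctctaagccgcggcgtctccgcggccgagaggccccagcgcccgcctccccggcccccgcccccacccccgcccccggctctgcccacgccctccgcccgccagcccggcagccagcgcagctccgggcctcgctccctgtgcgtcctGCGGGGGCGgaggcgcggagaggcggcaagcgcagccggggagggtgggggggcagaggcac

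EGR1 had 2 CArG boxes, from 105 to 96 and from 83 to 74 bases before its start, which 0.0313% of all promoters had, and 1 EGR site from 198 to 190 bases before it. EGR2 had 1 CArG box from 71 to 62 bases before the third of its annotated starts, and none before the other starts. NAB2 had no CArG box and no TGACG in its window, and 1 EGR site from 62 to 54 bases before the start. NAB1 had no CArG box either, and its first and second starts, whose windows overlap, had 3 and 4 EGR sites. EGR4 had neither a CArG box nor an EGR site in this window. The CRE core was found 2 times each in EGR1, the third EGR2 start and EGR4, and 1 time at each NAB1 start. These matches describe letters in a window, and no binding was measured here.

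**Figure D1:**
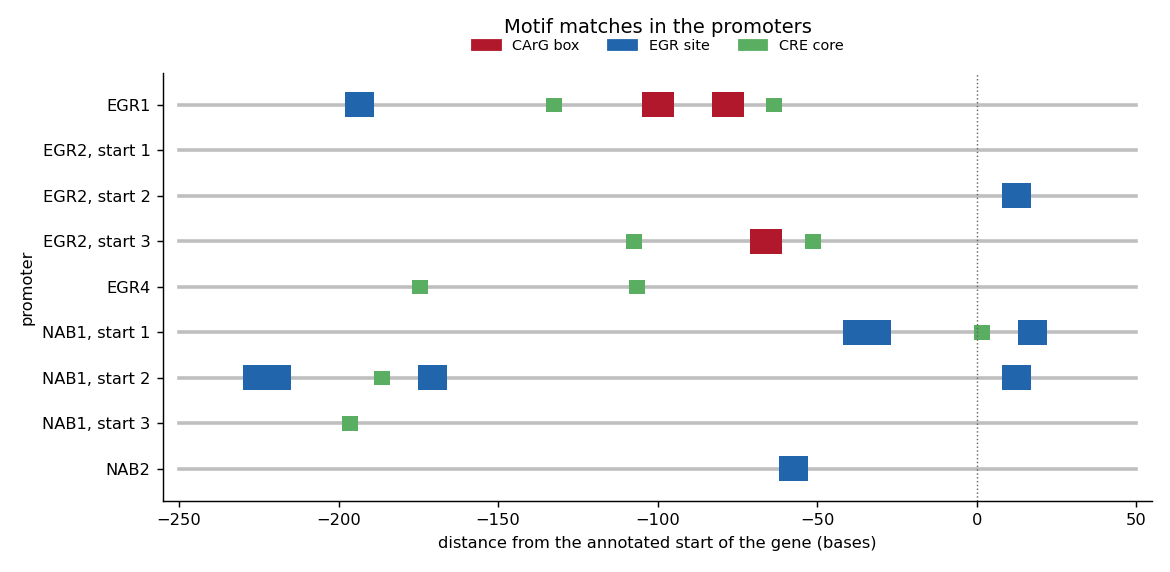
Each line is the promoter window of 1 annotated start, with distance in bases from that start on the x axis; red, blue and green blocks mark CArG boxes, EGR sites and CRE cores. CArG boxes lie in the windows of EGR1 and of 1 start of EGR2, and EGR sites in those of EGR1, NAB1, NAB2 and another start of EGR2.

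The probes are 60 bases long, and the array annotates them on build hg19. The EGR1 probe is placed at chr5:137804891-137804950, the EGR2 probe at chr10:64571850-64571909, the EGR3 probe at chr8:22545964-22546023, the NAB2 probe at chr12:57489162-57489221 and the NAB1 probes at chr2:191555149-191555208 and chr2:191557095-191557154. The EGR4 probe is given a place of 27 bases, chr2:73518057-73518083. Exon and UTR annotation of that build was not used here. Values below are log2 levels, the log2 of a probe's background-subtracted intensity minus the log2 of the 75th percentile on the same array, so a probe at that percentile has the level 0. A level of one probe is not compared with that of another. Differences are in log2 units with their standard error (SE), from a limma fit over all 30 arrays, and a gene was called changed at a Benjamini-Hochberg adjusted p under 0.05 with at least a 1.1-fold difference. Per the study's methods, exposures were repeated independently on different days, and the labels do not say which arrays share a day.

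EGR1, both probes of NAB1 and NAB2 were well above background on all 30 arrays, EGR2 on 26 and EGR4 on 16. EGR3 was well above background on 0 of 30 arrays, with levels from -9.36 to -6.69, and was not tested. So 5 of the 6 genes entered the tests, through 6 probes among 32142. Across the series, the 75th percentile of intensity ran from 578.4 to 2111, between 44.7% and 63.2% of probes were well above background, and 0 spots were saturated. All 7 epithelial markers (KRT5, KRT7, KRT8, KRT18, KRT19, CDH1 and EPCAM) were above background on all 30 arrays, and among markers of other cell types PTPRC was so on 30 arrays, at levels from -6.07 to -3.62, CD3E on 17 and PECAM1, HBB, TPSAB1 and COL3A1 on 0. No marker on either list was called between pollen and mock at any time, where at most 0.0436% of all probes were. The arrays lay on 5 slides. All 10 min arrays and replicate 1 of mock at 55 min shared a slide, replicates 2 and 3 of 55 min shared one with replicates 1 and 2 of 2h25 min, and replicate 1 of pollen at 55 min lay alone on a slide of another array design. Replicate 3 of 2h25 min lay with all 24 h arrays, and all 6h50 min arrays had a slide of their own.

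The first question was whether pollen changed these genes against mock at the same time. In this fit none of the 5 tested genes was called at any of the 5 times. The study, with the same cut-offs and its own processing, listed EGR2 among genes up-regulated at 55 min. At 55 min and 2h25 min EGR1 and EGR2 lay higher on each pollen array than on the mock array of the same number. Same-numbered arrays did not deviate together at 55 min, where the replicate 1 arrays lay on different slides and array designs. The limma fit called 0% of all probes at 10 min, 0.00311% at 55 min, 0.0342% at 2h25 min, 0.0436% at 6h50 min and 0.00311% at 24 h. At an unadjusted p under 0.05 there were 0 of the 5 genes at 10 min, 2 at 55 min, 4 at 2h25 min, 1 at 6h50 min and 0 at 24 h. Of all 32142 probes tested, 587, 1637, 958, 2390 and 1159 had such a p at these times, in the same order. The share of all probes whose pollen and mock groups did not overlap was not determined. Groups that lie apart are thus given below as a description only.

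EGR2, the factor best known from myelination and T cell tolerance, gave the widest gap. At 55 min its levels were -4.63, -3.68 and -2.65 in mock and -1.77, -1.77 and -1.69 with pollen, in the order of the replicates. All 3 pollen arrays lay above all mock arrays, and the mock arrays spread over 1.98 log2 units while the pollen arrays lay within 0.08. The difference was 1.91 (SE 0.35, 95% interval 1.19 to 2.63), 3.75-fold, with adjusted p = 0.119. The pooled SE stands beside unequal SDs in these groups, 0.99 in mock and 0.05 with pollen. On the slide with 2 arrays of each group, the difference was 1.43. The call was sensitive to the processing, since EGR2 passed with array weights (adjusted p = 0.000287), with the log2 values the authors deposited (0.0268), with normexp background correction and quantile normalization together (0.000145) and without mock replicate 3 (0.00308), and its adjusted p was 1 with slide as a block.

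EGR1, the family member most often used as a readout of ERK activity, followed the same order at 55 min. Its levels were 4.10, 4.44 and 5.46 in mock and 5.60, 5.61 and 5.87 with pollen. The groups did not overlap, but mock replicate 3 came within 0.14 of the lowest pollen array. Their SDs were unequal too, 0.71 in mock and 0.15 with pollen. The difference was 1.03 (SE 0.30, 95% interval 0.40 to 1.66), 2.04-fold, with adjusted p = 0.918. It was 0.79 within the shared slide, and it passed with array weights alone among 15 settings (adjusted p = 0.0134). Mock replicate 3 was the highest mock array for EGR2, EGR4, NAB2 and the brighter NAB1 probe as well as for EGR1, and the highest for FOS, with 2.33 against -1.83 and -1.06.

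At 2h25 min the fitted differences of EGR1 and EGR2 were lower than at 55 min, with no called change between these times. EGR1 stood at 3.33, 2.31 and 2.98 in mock and at 3.96, 3.26 and 3.64 with pollen. EGR2 stood at -5.05, -5.43 and -5.52 in mock and at -3.95, -4.66 and -4.47 with pollen. The EGR1 groups overlapped by 1 array, and the EGR2 groups did not overlap. The differences were 0.75 (SE 0.30) for EGR1 and 0.97 (SE 0.35) for EGR2, both with adjusted p = 1. Within the 2 slides they were 0.79 and 0.66 for EGR1 and 0.93 and 1.05 for EGR2.

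The corepressor genes lay slightly higher with pollen at that time. NAB1, which is broadly expressed, stood at 0.97, 0.73 and 0.94 in mock and at 1.18, 1.18 and 1.23 with pollen on its brighter probe, and its second probe stood at 0.23, 0.23 and 0.16 against 0.85, 0.71 and 0.57. Neither probe's groups overlapped, which is a description, since the share of all probes with such groups was not determined. The difference was 0.32 (SE 0.10, 95% interval 0.11 to 0.53) on the first and 0.50 (SE 0.22, 0.05 to 0.95) on the second, with adjusted p = 1 for both. NAB2 stood at 3.83, 3.91 and 3.88 in mock and at 4.06, 4.22 and 4.10 with pollen, a difference of 0.26 (SE 0.12, 0.01 to 0.50) with adjusted p = 1. The NAB2 arrays with pollen all lay above those of mock, by less than the rise over time described below.

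At the other times no difference was called either. At 10 min the 5 genes differed by -0.06 to 0.44. At 6h50 min EGR1 differed by -0.25 and EGR2 by -0.46, both with overlapping groups, and NAB2 by 0.25 (adjusted p = 0.646). EGR1 and EGR2 were lower with pollen in all 3 same-numbered pairs, but same-numbered arrays did not deviate together at this time. The second NAB1 probe differed by 0.48 there, and its mock replicate 1, at -1.33, lay in a dim area of the array, where neighbouring probes were 0.86 below the other arrays of that time. The brighter NAB1 probe, elsewhere on the array, differed by 0.08. At 24 h EGR1 differed by -0.37, lower with pollen in all 3 pairs, and EGR2 by -0.40, lower in 2 of 3, the NAB probes by -0.02 to 0.02, and none was called. EGR4, a factor best known from nerve cells, differed by -0.63 to 0.72 over the 5 times with an SE of 0.59, and its 95% interval at 55 min ran from -0.50 to 1.95.

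**Figure D2:**
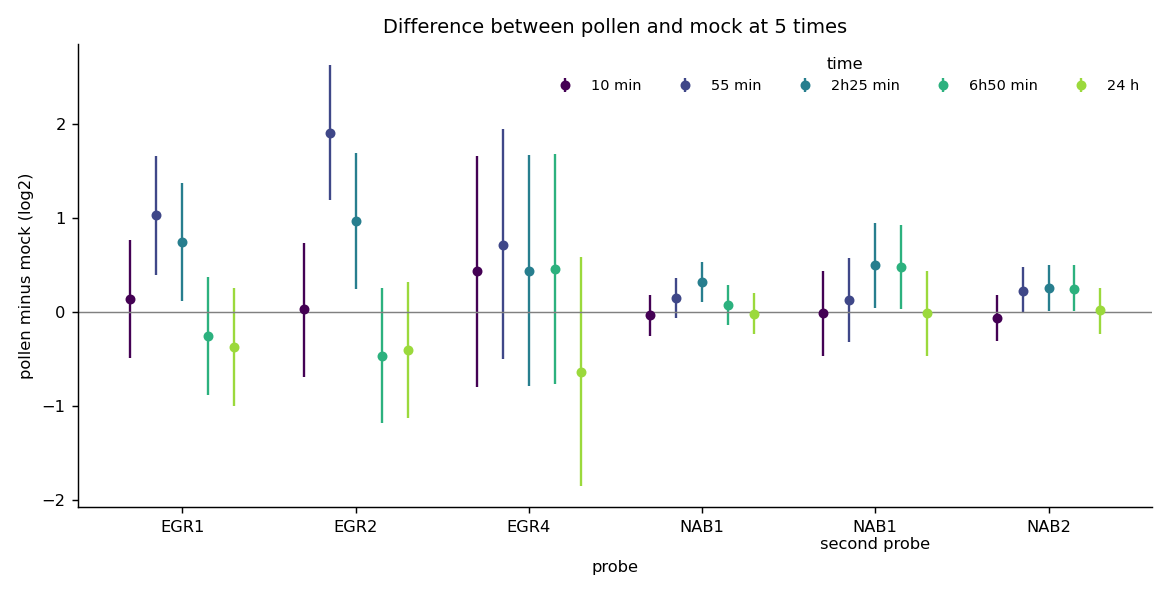
The y axis gives the pollen minus mock difference in log2 units for each tested probe on the x axis, colours mark the 5 times, and bars are 95% confidence intervals of the limma fit (n = 3 arrays per group). EGR2 at 55 min lies highest at 1.91, and the NAB probes stay between -0.06 and 0.50.

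Whether the pollen effect itself differed between neighbouring times was tested in the same fit. The EGR2 effect was larger at 55 min than at 10 min by 1.88 (SE 0.49, adjusted p = 0.945) and smaller at 6h50 min than at 2h25 min by 1.43 (fitted difference -1.43, SE 0.49, adjusted p = 0.746). None of the 6 probes was called in any of the 4 tests, which called 0, 0, 1 and 0 of all probes. The comparisons share groups of arrays, so their values are not independent.

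The second question was how each gene moved over time within mock and within pollen. Between 10 min and 55 min, EGR1 and EGR2 rose in cells exposed to pollen, and between 55 min and 2h25 min both fell while NAB2 rose. Of the 5 genes, 0 were called from 10 min to 55 min in mock, where 0.187% of probes were called. Among the 5, EGR2 alone had an unadjusted p under 0.05 there, as did 3475 of all 32142 probes. In pollen 2 of the 5 genes were called over that interval, where 0.843% of probes were. From 55 min to 2h25 min, 2 of 5 were called in mock, against 0.0156% of all probes, and 4 of 5 in pollen, against 0.208%. With any 1 array left out, the count was 1 to 3 in mock and 3 in pollen.

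**Figure D3:**
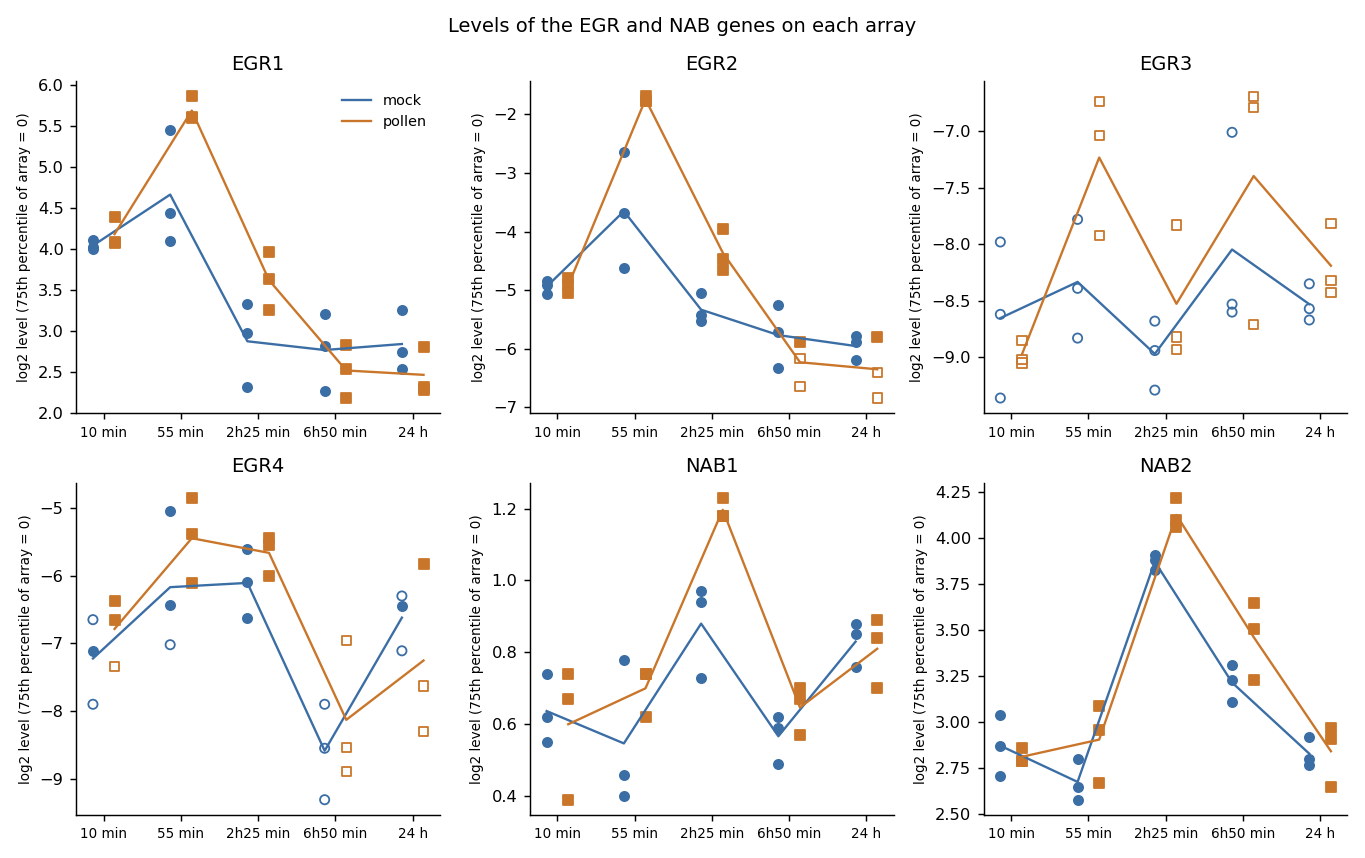
Log2 level of each gene (y axis, 75th percentile of the array = 0) by time after exposure (x axis, evenly spaced), with 1 point per array, circles and blue for mock, squares and orange for pollen, and lines through the means of 3 arrays. Open points were not well above background, and EGR3 was open on every array. By group mean, EGR1 and EGR2 were highest at 55 min and NAB1 and NAB2 at 2h25 min. NAB1 in mock was nearly as high at 24 h (0.83) as at 2h25 min (0.88).

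At 10 min EGR2 stood at -4.92, -5.06 and -4.84 in mock and at -4.92, -5.04 and -4.79 in pollen. The 6 arrays lay within 0.27 of each other. From there to 55 min it rose by 3.17 in pollen (SE 0.35, 9.01-fold, adjusted p = 3.47e-05), and all 55 min arrays lay above all 10 min arrays. In mock the difference was 1.29 (SE 0.35, adjusted p = 0.144), with the groups again apart. EGR1 stood at 4.0, 4.02 and 4.11 in mock and at 4.07, 4.39 and 4.09 in pollen at 10 min. It rose by 1.51 in pollen (SE 0.30, 2.85-fold, adjusted p = 0.0184), and in mock the difference was 0.62 (SE 0.30, adjusted p = 0.47) with overlapping groups. The 10 min slide held 1 array of 55 min, mock replicate 1. That array had the lowest EGR1 and EGR2 of its time, and with slide as a block both pollen calls were lost (1.72 for EGR2 and 0.70 for EGR1, adjusted p = 1). Slide and time can thus be told apart here through 1 array only.

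From 55 min to 2h25 min most arrays shared a slide. EGR2 fell by 2.62 in pollen (SE 0.35, adjusted p = 0.000872) and by 2.56 with slide as a block (adjusted p = 0.00332). EGR1 fell by 2.07 in pollen (SE 0.30, 4.21-fold, adjusted p = 0.00205) and by 1.79 in mock (SE 0.30, 3.47-fold, adjusted p = 0.0379). All 2h25 min arrays lay below all 55 min arrays in these 3 comparisons. The EGR1 call in mock was lost in 7 of 14 other settings, among them the replicate number as a block (adjusted p = 0.0992). EGR2 differed by -1.68 in mock, with adjusted p = 0.166.

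NAB2 rose in the same interval. Its levels at 55 min were 2.58, 2.65 and 2.80 in mock and 3.09, 2.96 and 2.67 in pollen, against the 2h25 min levels of 3.83 to 3.91 and 4.06 to 4.22 given above. The lowest array at 2h25 min exceeded the highest at 55 min by 0.74. The rise was 1.20 in mock (SE 0.12, 2.29-fold, adjusted p = 1.55e-05) and 1.22 in pollen (SE 0.12, 2.33-fold, adjusted p = 1.84e-05). It was called in all 14 other settings in each exposure, at 1.15 to 1.26 in mock and 1.1 to 1.70 in pollen. The difference between the 2 rises was 0.02, with a 95% interval of -0.32 to 0.37. NAB1 rose by 0.50 in pollen (SE 0.10, adjusted p = 0.0429), a call kept in 4 of 14 settings, and differed by 0.33 in mock (adjusted p = 0.851). Its second probe differed by 0.66 in pollen (adjusted p = 0.348) and by 0.28 in mock.

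**Figure D4:**
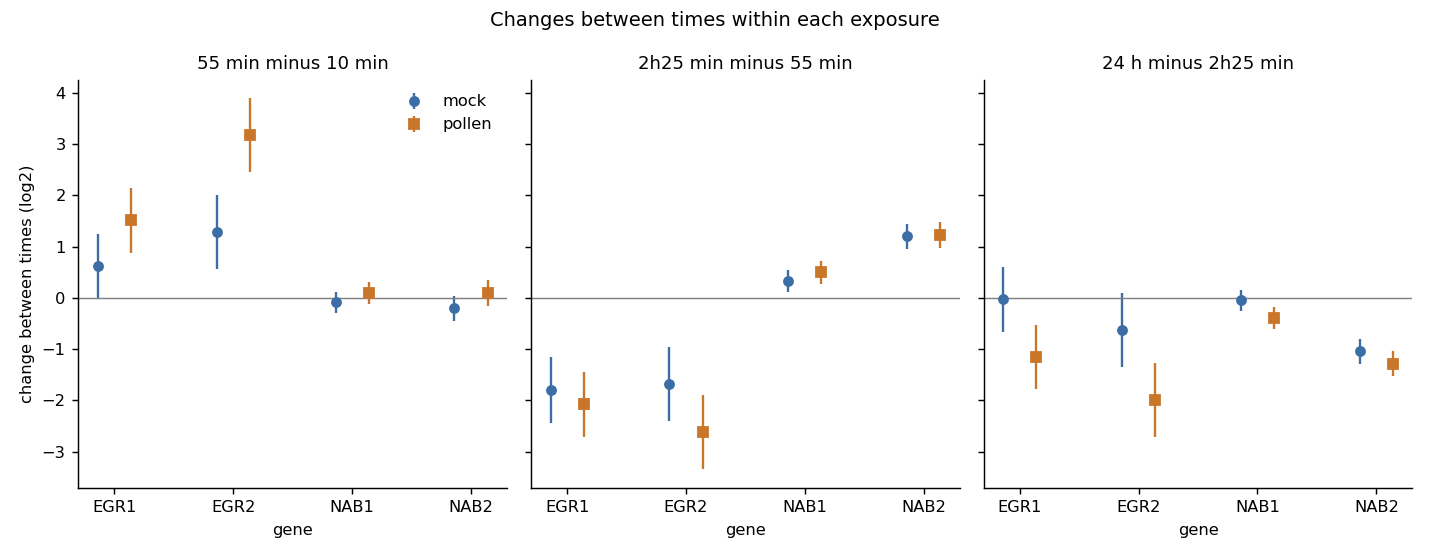
The y axis gives the change in log2 level between 2 times for 4 genes on the x axis, circles for mock and squares for pollen, with 95% confidence intervals of the limma fit (n = 3 arrays per group). EGR1 and EGR2 lie above 0 from 10 min to 55 min and below 0 from 55 min to 2h25 min, when NAB2 lies at 1.20 and 1.22; neighbouring panels share the arrays of the time between them.

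The 6h50 min arrays were on a slide of their own, scanned apart from the rest, so for this time the slide and the hour cannot be told apart. From 2h25 min to 6h50 min 32.5% of all probes were called in mock and 31% in pollen, and from 6h50 min to 24 h 40.5% and 36.2%. The median of all probes moved by -0.16 and -0.11 in the first step and by 0.14 and 0.12 in the second. Against those shares, 3 of the 5 genes were called lower at 6h50 min than at 2h25 min in mock (EGR4, NAB1 and NAB2) and 5 of 5 in pollen. The NAB1 call in mock was kept in 7 of 13 other settings. EGR4 was well above background on 0 of 6 arrays at 6h50 min. It entered the tests only through pollen at 55 min and both groups of 2h25 min, with all 3 arrays well above background. Its lower level against 2h25 min is thus partly set by that filter, and its place in these counts is no support. At 6h50 min the EGR4 level was set no lower than that of the dimmest probe well above background on the same array. With this floor and normalization, 2h25 min was 1.39-fold higher in mock and 2-fold higher in pollen. The floor is no upper limit for EGR4, so these folds are estimates and not minimums. With normexp background correction and quantile normalization the fitted EGR4 differences were -0.27 in mock (adjusted p = 0.0833, the call lost) and -0.45 in pollen (adjusted p = 0.00579). The dim markers CD3E and PTPRC were also called lower at 6h50 min, with differences of -2.24 and -1.09 in mock and of -1.89 and -1.47 in pollen, and both were called higher again at 24 h, CD3E by 1.93 and 1.58 and PTPRC by 1.02 and 1.31. Their part in the EGR and NAB differences was not tested. From 6h50 min to 24 h, NAB2 was called lower in mock (-0.38) and pollen (-0.62). NAB1 (0.26, kept in 5 of 13 other settings) and EGR4 were called higher in mock. EGR4 was above background on 1 of 3 mock arrays at 24 h, and with the same floor at 6h50 min no rise remained. This EGR4 call was kept in 10 of 13 other settings and lost with the deposited log2 values (adjusted p = 0.0746), with normexp and quantile normalization (0.106) and without mock replicate 3 of 6h50 min (0.0587).

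The comparison of 24 h with 2h25 min, added after the slides were seen, leaves that slide out and has 1 replicate of 2h25 min per exposure on the slide of the 24 h arrays. It called 27.3% of probes in mock and 23% in pollen. NAB2 fell by 1.04 in mock (SE 0.12, adjusted p = 1.35e-06) and by 1.28 in pollen (SE 0.12, adjusted p = 1.84e-07). Its levels at 24 h, 2.65 to 2.97 over the 6 arrays, overlapped those at 10 min, 2.71 to 3.04. In this comparison 5 of the 7 epithelial markers were called lower and 1 higher in each exposure, with KRT5 at -2.96 in mock and -2.51 in pollen and KRT19 at -1.66 and -1.14, and the part of this in the member differences was not tested. In pollen EGR1 fell by 1.15, EGR2 by 1.99 and NAB1 by 0.39 (adjusted p = 0.00793, 0.000232 and 0.00852), and EGR2 was above background on 1 of 3 pollen arrays at 24 h. In mock EGR1 differed by -0.03 and EGR2 by -0.62 (adjusted p = 0.954 and 0.207).

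Set in order, the 10 groups of EGR1 ran from pollen at 55 min (5.69 ± 0.15, SD, n = 3) and mock at 55 min (4.67 ± 0.71) through pollen and mock at 10 min (4.18 ± 0.18 and 4.04 ± 0.05) to pollen at 2h25 min (3.62 ± 0.35). The other 5 groups lay between 2.47 and 2.87, and their arrays overlapped. For EGR2, pollen at 55 min (-1.74 ± 0.05) and mock at 55 min (-3.65 ± 0.99) were followed by pollen at 2h25 min (-4.36 ± 0.37) and then by the 10 min groups (-4.92 ± 0.12 and -4.94 ± 0.12). Mock at 55 min overlapped pollen at 2h25 min. NAB2 was highest in pollen (4.13 ± 0.08) and mock (3.87 ± 0.04) at 2h25 min, then in pollen (3.46 ± 0.21) and mock (3.21 ± 0.10) at 6h50 min, and its remaining 6 groups lay between 2.67 and 2.91. NAB1 was also highest at 2h25 min with pollen (1.20 ± 0.03), and its other 9 groups lay between 0.55 and 0.88.

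Over the 10 group means the levels of EGR1 and EGR2 had a Pearson r of 0.95, NAB1 and NAB2 of 0.717, and EGR1 and NAB2 of -0.34. These points share slides and times, and the values are a description. Among 13222 gene names searched, each with a probe well above background on all 30 arrays, which leaves out EGR2, the patterns most like EGR1 were those of SCD5 (r = 0.952), TENT5B (0.942) and FOS (0.942). For NAB2 they were HRH1, a histamine receptor (0.957), PHC2 (0.925) and ST3GAL1 (0.923), and for NAB1 HIVEP1 (0.949), MIDN (0.932) and RNF44 (0.928).

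Other immediate early genes were described from a list of 12, all of which were tested. Between pollen and mock 0 of 12 were called at any time, where at most 0.0436% of all probes were. The study, in its own processing, listed IER3 among genes up-regulated at 55 min. All 12 lay higher with pollen at 55 min (median 0.73, 7 with an unadjusted p under 0.05) and at 2h25 min (median 0.66, 6 such), against medians of -0.01 and -0.03 over all probes tested, of which 48.5% and 41.6% lay higher. Of all 32142 probes, 1637 and 958 had such a p at these times. At 10 min 9 of 12 lay higher, with a median of 0.15, at 6h50 min 5 of 12 did, with a median of -0.10, and at 24 h all 12 lay lower with pollen, with a median of -0.20 (0 with an unadjusted p under 0.05). From 10 min to 55 min in pollen, where 0.843% of all probes were called, 4 of 12 were called higher. They were FOSB, a subunit of AP-1, by 3.92 (SE 0.69, adjusted p = 0.00886), CCN1, a secreted matrix protein, by 1.43 (adjusted p = 0.000705), IER3, which limits cell death, by 1.16 (adjusted p = 0.00932) and IER2, a nuclear protein, by 1.09 (adjusted p = 0.0334). The median of the list was 0.95, against 0 over all probes. With slide as a block all 4 had adjusted p = 1, with differences of 2.47, 0.80, 0.62 and 0.43, and IER2 was also lost without any 1 of the 6 arrays other than replicate 1 at 55 min (adjusted p = 0.0597 to 0.118). IER2 then fell by 1.17 to 2h25 min in pollen (adjusted p = 0.0438) and was the 1 of 12 called in that interval, a call lost without any 1 of the 6 arrays (adjusted p = 0.0581 to 0.199) and with the replicate block (adjusted p = 0.0595). In mock 0 of 12 were called from 10 min to 55 min (3 at an unadjusted p under 0.05) and 0 from 55 min to 2h25 min (5 such). Of all 32142 probes, 3475 and 1381 had such a p over these intervals in mock, and 0.187% and 0.0156% were called.

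**Figure D5:**
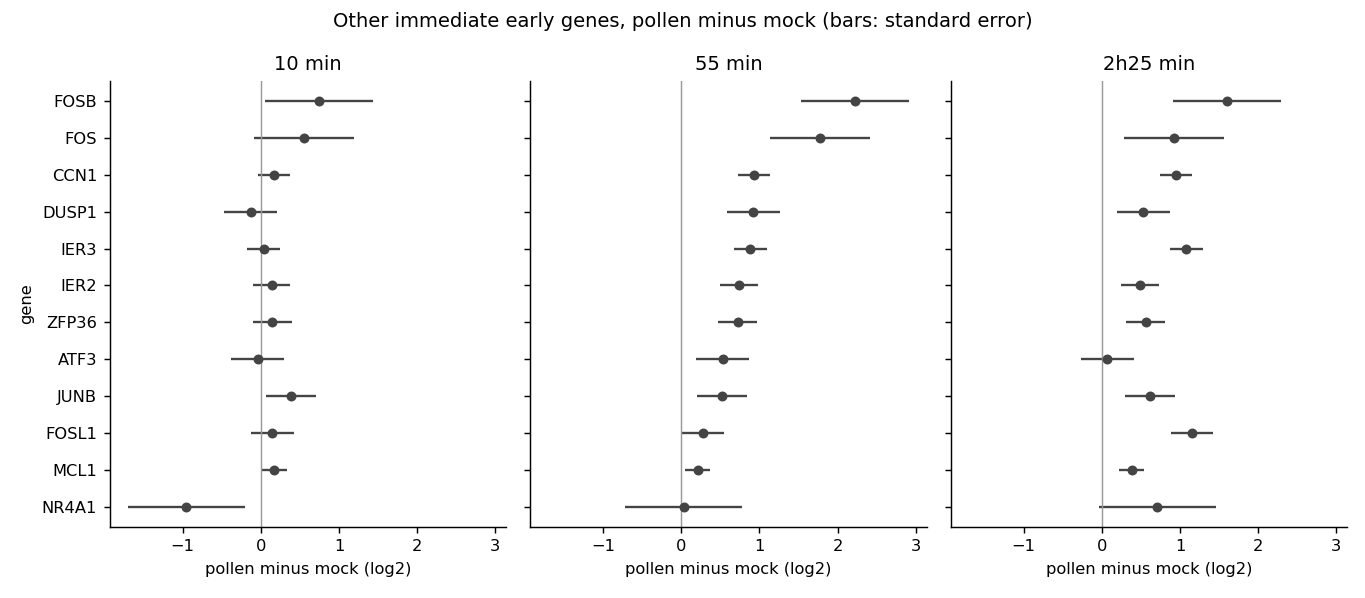
The x axis gives the pollen minus mock difference in log2 units for the 12 other immediate early genes on the y axis at 10 min, 55 min and 2h25 min, with the standard error of the limma fit (n = 3 arrays per group). All 12 points lie above 0 at 55 min and at 2h25 min, and none passed the threshold.

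The spread of the mock arrays at 55 min differed among these genes, from 0.21 log2 units for MCL1 to 4.21 for FOSB. Mock replicate 3 was the highest mock array for 11 of the 12, all but MCL1. FOSB stood at -3.03, -3.79 and 0.42 in mock and at 0.28, -0.55 and 0.54 with pollen. Mock replicate 3 lay within the pollen range. IER2 stood at 4.68, 4.97 and 5.92 in mock and at 5.73, 5.87 and 6.18 with pollen, with mock replicate 3 again the highest.

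No gene of 3 lists around the EGR factors was called between pollen and mock, where at most 0.0436% of all probes were at any time. At that share, 0 calls in lists this short say little about these genes. Of 10 genes on the route from ERK to the EGR promoters (among them the ETS factors ELK1, ELK3 and ELK4, SRF and its partners MRTFA and MRTFB), 10 were tested and 0 were called at any time, with medians from -0.05 to 0.07 and at most 1 gene at an unadjusted p under 0.05. Of the 10 NuRD genes that NAB proteins recruit, 10 were tested and 0 were called, with medians from -0.02 to 0.05 and 0 at an unadjusted p under 0.05. Of 4 zinc finger proteins that read overlapping GC-rich sites, SP1, SP3 and ZBTB17 were tested and 0 were called, and WT1 was above background on 0 of 30 arrays. Of all 32142 probes, 587 to 2390 had an unadjusted p under 0.05 between pollen and mock at the 5 times. From 55 min to 2h25 min, 0 genes of these 3 lists were called in mock or in pollen, against 0.0156% and 0.208% of all probes.

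Of 16 genes known as EGR targets, 14 were tested, and FLT1 and FASLG were above background on 0 arrays. At 2h25 min 1 of 14 was called higher with pollen, against 0.0342% of all probes. It was F3, which codes for tissue factor, the starter of coagulation. Its mean level was 1.79 with pollen and 1.02 in mock, a difference of 0.77 (SE 0.14, adjusted p = 0.0463). This call was kept in 4 of 14 other settings, at 0.58 to 0.89, and was lost with the replicate block (adjusted p = 0.104) and without any 1 of the 6 arrays other than pollen replicate 3 (adjusted p = 0.0577 to 0.364). The list's median was 0.20 at that time, with 9 of 14 higher and 3 at an unadjusted p under 0.05. Over all 32142 probes the median was -0.03, 41.6% lay higher and 958 had such a p. At the other 4 times 0 of 14 were called, where at most 0.0436% of all probes were. The medians ran from -0.10 to 0.16, with at most 2 genes at an unadjusted p under 0.05. From 55 min to 2h25 min 0 of 14 were called in mock or pollen, with medians of 0.15 and 0.32 and 1 and 5 genes at an unadjusted p under 0.05. Over all 32142 probes the medians were -0.03 and -0.02, 1381 and 2713 had such a p, and 0.0156% and 0.208% were called.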

How the data were processed

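RNA of 30 BEAS-2B samples was hybridised to one-colour Agilent arrays. Per the file headers, the deposited intensity of each spot was background-subtracted and detrended with Agilent Feature Extraction 11.0.1.1, and the authors also deposited log2 values that are normalized between arrays, used as an alternative. Replicate spots were averaged per probe, and log2 intensity was set against the 75th percentile of each array over 33873 probes on both array designs. Probes well above background on every array of at least 1 group were tested (32142). Group means were fitted with limma 3.58.1 in R 4.3.3 without a block, with Benjamini-Hochberg adjustment per comparison, and the fit was tested on simulated data. The brighter NAB1 probe stands for its gene. Motifs were searched with Python. Members, lists and tests were chosen with earlier results of these data known. All members are named. List genes are given by counts and by name where called, and others are named to say what a list or marker set holds or which were not tested. FOS, MCL1, and arrays of FOSB and IER2 were chosen after their values were seen. Same-numbered samples deviated together at 10 min (r = 0.399 to 0.46), 2h25 min (0.493 to 0.643) and 24 h (0.299 to 0.747), but not at 55 min (-0.0676 to 0.396) or 6h50 min (-0.0284 to 0.232). The number of arrays limits the precision. Some list genes are not reported here.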

Additional observations from a re-analysis of the deposited data

How the results depend on the processing

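No difference of an EGR or NAB probe that was called or had an unadjusted p under 0.05 changed direction in any alternative run. Pollen against mock at 55 min had 0 genes called in the main setting, 2 with array weights, 1 with the deposited log2 values, 1 with normexp and quantile normalization, and 0 to 1 when 1 array was left out (EGR2 without mock replicate 3). From 10 min to 55 min in mock, 0 became 1 with array weights and 0 to 1 without 1 array. From 55 min to 2h25 min in mock, 2 became 1 with a percentile over all probes of each array, 1 without the filter on dim probes, 1 with the replicate block and 4 with array weights, and 1 to 3 without 1 array; EGR1 lost its call without replicates 2 or 3 of either group. With the percentile over all probes of each array, 6h50 min against 2h25 min fell to 1 in mock and 3 in pollen, 24 h against 6h50 min in mock to 1 (1 to 2 without 1 array), 55 min against 10 min in pollen to 1, 2h25 min against 55 min in pollen to 2 and 24 h against 2h25 min in pollen to 2. With slide as a block, 55 min against 10 min in pollen fell to 0, and it was 1 to 2 without 1 array. From 55 min to 2h25 min in pollen, 4 became 3 without any 1 array. The cause of these shifts was not tested. The replicate block changed no other count of called genes by over 1.5 times. Slide as a block could not be fitted for times compared with 6h50 min. The comparisons of 24 h with 2h25 min, and the 55 min values without the arrays on other slides, were chosen after seeing the data. EGR3 was not well above background on any array, so changes of it were not detectable. EGR4 was not well above background at 6h50 min, so its folds against that time are uncertain in size.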
